A study of Mus musculus with 26 samples.

Results

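The interleukin-1 and interleukin-18 receptor cluster is a run of 6 related genes on mouse chromosome 1. They are Il1r2, Il1r1, Il1rl2, Il1rl1, Il18r1 and Il18rap, which in the GRCm38.p6 assembly lie between bases 40084692 and 40551707, a stretch of 467 kb. Its members here were the probe sets that the array annotation pairs with 1 of these symbols and no other: 67 of the 65535 probe sets in the data, for 5 of the 6 genes. Il1r2 had 9 of them, Il1r1 13, Il1rl2 10, Il18r1 19 and Il18rap 16, and Il1rl1 was not analysed here. All 67 are accounted for, and the probe set of each of the 5 genes with the highest mean over all arrays passed the filter on low values (above the array's 50th percentile in at least 2 arrays).

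The study sorted endothelial cells, positive for CD31 and CD146, out of digested tissue of female mice and hybridised their amplified RNA to 26 expression arrays, which fall into 9 groups. Every value below is a log2 expression level as deposited, or a difference of such levels. MCA313-IFNγ-IND tumours, which can be induced to make interferon gamma (IFNγ), grew in mice aged 4 to 6 months that combined PIG, Pdgfb-Cre and IFNγ-del, in which the Cre driver confines the IFNγ receptor to endothelial cells, and were sampled at 0 h (3 arrays), 24 h (2 arrays) and 48 h (2 arrays) of induction. J558L-IFNγ-GFP-IND tumours, which make a fusion of IFNγ with GFP, grew in Rag-/- mice of the same age that have the receptor on all cells and no mature T or B cells of their own. Endothelium came from the tumour after 24 h of induction (3 arrays) and at 0 h (2 arrays), and from the kidney after 24 h (3 arrays) and at 0 h (3 arrays). 16.113 tumours grew in Rag-/- mice aged 3 to 4 months and were sampled 120 h after transfer of tumour-specific T cells that were IFNγ+/+ (3 arrays) or IFNγ-/- (5 arrays), so that the control animals also carried transferred T cells. Each tumour is 1 line, and the labels do not say whether arrays of a group come from separate animals, so p-values measure the spread between these samples.

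Members of this family bind cytokines outside the cell and pass the signal on through a shared inner domain, the adaptor MyD88, IRAK kinases and NF-kB. Il1r1 encodes the chain that signals for IL-1, an activator of endothelial adhesion molecules and chemokines, whereas Il1r2 encodes a decoy that binds IL-1 without signalling and Il1rl2 encodes the receptor for IL-36. Il18r1 encodes the chain that binds IL-18, and Il18rap the accessory chain that this receptor needs to signal; the pair is best known from T and NK cells, where IL-18 and IL-12 together drive production of IFNγ.

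The promoters of Il18rap and Il1r1, the 2 genes on which the results below turn, are shown with 1 of the 3 Il18r1 windows, the window of the cluster with the most matches to a motif tied to IFNγ. Each runs from 250 bases before to 50 bases after an annotated start on the plus strand (RefSeq, GRCm38.p6), and capitals mark matches to the GAS motif TTCNNNGAA. The windows are chr1:40515112-40515411 for Il18rap, chr1:40224830-40225129 and chr1:40266336-40266635 for 2 annotated starts of Il1r1, and chr1:40465756-40466055 for Il18r1. The first annotated base of the Il1r1 gene, 40222480, lies outside both of its windows.
Il18rap: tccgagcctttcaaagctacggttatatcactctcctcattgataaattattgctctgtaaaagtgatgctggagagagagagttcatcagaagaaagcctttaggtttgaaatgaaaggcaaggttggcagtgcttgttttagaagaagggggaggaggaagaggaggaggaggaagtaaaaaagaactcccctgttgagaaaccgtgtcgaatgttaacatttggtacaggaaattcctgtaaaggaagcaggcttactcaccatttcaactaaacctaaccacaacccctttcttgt
Il1r1, upstream start: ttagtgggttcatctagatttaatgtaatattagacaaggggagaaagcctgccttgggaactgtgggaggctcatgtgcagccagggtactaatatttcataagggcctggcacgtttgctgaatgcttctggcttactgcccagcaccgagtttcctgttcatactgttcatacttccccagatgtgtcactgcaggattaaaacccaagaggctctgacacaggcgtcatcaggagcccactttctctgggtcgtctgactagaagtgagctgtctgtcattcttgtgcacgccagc
Il1r1, downstream start: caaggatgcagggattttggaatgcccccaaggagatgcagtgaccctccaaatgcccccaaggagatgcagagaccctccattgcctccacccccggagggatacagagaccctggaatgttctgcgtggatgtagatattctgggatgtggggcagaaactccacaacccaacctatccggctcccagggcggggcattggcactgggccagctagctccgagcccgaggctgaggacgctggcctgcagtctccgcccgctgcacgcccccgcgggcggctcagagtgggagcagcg
Il18r1: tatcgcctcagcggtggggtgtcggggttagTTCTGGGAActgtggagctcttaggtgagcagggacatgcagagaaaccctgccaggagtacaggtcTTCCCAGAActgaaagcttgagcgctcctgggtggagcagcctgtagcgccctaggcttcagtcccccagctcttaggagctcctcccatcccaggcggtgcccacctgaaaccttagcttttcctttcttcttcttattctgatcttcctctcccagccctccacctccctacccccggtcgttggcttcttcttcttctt
The Il18r1 window holds 2 GAS matches, which begin 219 and 152 bases before its start. The Il18rap window and both Il1r1 windows hold none of these letters, nor the ISRE core (GAAA, any 2 bases and GAAA), which was searched on both strands (the GAS letters read the same on both). Of the other windows in the cluster, that of Il1r2 holds 1 GAS match, 111 bases before the start, and those of Il1rl2 and the 2 other Il18r1 starts hold neither motif. Among 32851 mouse promoter windows of this length, 8.3% hold a GAS match and 3.44% an ISRE core.

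Before the results, the arrays fall into 4 sets that appear to have been normalized separately (MCA313 tumour, J558L tumour, J558L kidney and 16.113 tumour), so levels are set beside each other only within a set. Array medians were 5.78 to 5.88 in the MCA313 set, 6.42 to 6.46 in J558L tumour, 6.33 to 6.4 in J558L kidney and 5.62 to 5.79 in the 16.113 set, and serve as a mark of low signal because background was not measured. Of 7 endothelial markers 6 were measured, and their mean level lay between 10.78 and 12.76 over all arrays, with none past the test in limma in any of the 5 treated against control comparisons (3 of 6 had an unadjusted p below 0.05 in MCA313 at 48 h, 1 in kidney and 0 in the other three). Over all 4386 genes, the share at an unadjusted p below 0.05 was 10.9% in MCA313 at 24 h, 12.8% at 48 h, 8.14% in J558L tumour, 13.7% in kidney and 21.5% in 16.113, and counts of unadjusted p-values below are to be set against it. Ifi205, an IFNγ-induced gene, was higher in all 5 by 1.46 to 4.28 (adjusted p at most 0.00838, limma).

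Il18rap, the IL-18 accessory chain, read higher in all its probe sets in the 3 comparisons of induced with uninduced tumours. All 16 of its probe sets were higher in induced tumour endothelium than at 0 h in MCA313 at 24 h, in MCA313 at 48 h and in J558L tumours, where between 45.3% and 47.0% of all 53857 probe sets with 1 symbol were higher. Its brightest probe set was about 4- to 5-fold higher in induced MCA313 tumours. It did not pass the corrected threshold at 24 h or at 48 h (adjusted p = 0.0527 and 0.0804, limma). In J558L kidney 7 of the 16 were higher. Its gene lies at chr1:40515362-40551707.

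In MCA313 tumours the brightest Il18rap probe set, 17212257, read 5.62, 6.19 and 6.55 at 0 h, 8.70 and 8.21 at 24 h, and 8.61 and 7.68 at 48 h. Every induced array lay above every 0 h array, and the 24 h and 48 h values overlapped. The change at 24 h was 2.34 ± 0.56 (SE), a 5.05-fold higher level with a 95% interval of 1.16 to 3.51 on the log2 scale, and the adjusted p of limma's moderated test was 0.0527. At 48 h it was 2.03 ± 0.56 with an adjusted p of 0.0804, and the 48 h level differed from the 24 h level by -0.31 ± 0.62 (adjusted p = 1.0, limma). Neither change passed the threshold of 0.05 in this fit. In fits that left out 1 array, 0 of 5 passed at 24 h and 0 of 5 at 48 h. Their differences ran between 2.08 and 2.58 at 24 h and between 1.56 and 2.49 at 48 h. Over the 13 alternatives the adjusted p ran between 0.00163 and 0.326 at 24 h, below 0.05 in 4 of them, and between 0.0196 and 0.615 at 48 h, below 0.05 in 2. The lowest value at each time came from the mean of the gene's probe sets, given below with its limit.

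The other Il18rap probe sets lay in the same direction. Probe set 17212258 had the largest difference of the 16 in MCA313 tumours: it read 4.56, 5.76 and 7.62 at 0 h, 9.67 and 9.23 at 24 h, and 9.99 and 8.87 at 48 h. The control arrays of this probe set were spread over more than 3 log2 units, yet all stayed below the induced ones. The smallest difference at 24 h among the 16 was 0.80, the median 2.11 and the largest 3.47. At 24 h, 15 of the 16 had no overlap between induced and 0 h arrays, where 10.9% of all probe sets were higher without overlap, and at 48 h 11 of 16 had none (11.5% of all). The probe sets read 1 transcript and are not independent of each other.

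**Figure D1:**
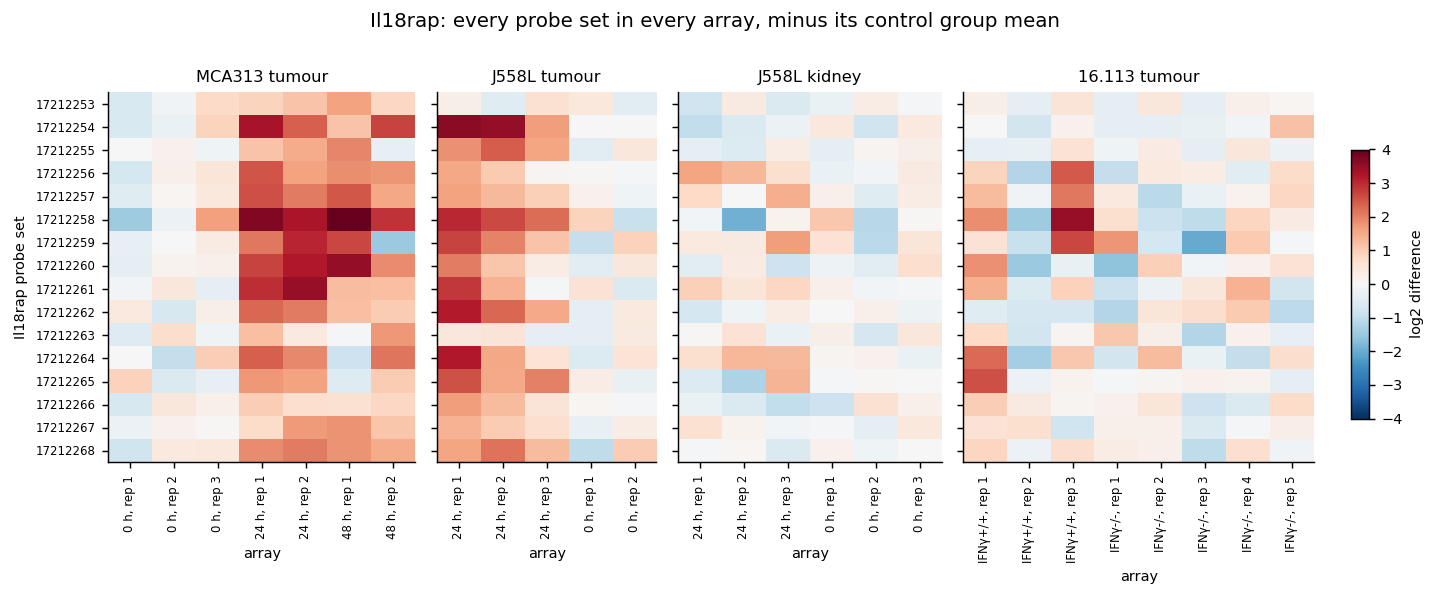
Each cell is the log2 level of 1 Il18rap probe set (rows, by identifier) in 1 array (columns), minus the mean of the control group of its set (0 h, or IFNγ-/- T cells for 16.113). Red fills nearly all cells of the induced MCA313 and J558L tumour arrays, whereas kidney and 16.113 arrays mix red and blue.

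Averaging the 16 probe sets in each array, an alternative that uses every probe set of a gene, gave 4.39, 4.73 and 5.09 at 0 h, 6.81 and 6.75 at 24 h, and 6.27 and 6.01 at 48 h in MCA313 tumours. By this measure Il18rap rose by 2.04 ± 0.35 at 24 h (adjusted p = 0.00163, limma over 2854 genes) and by 1.4 ± 0.35 at 48 h (adjusted p = 0.0196, limma). The mean lay below the array medians at 0 h and above them at both induced times. It passed the filter on low values through arrays of the induced tumour groups alone, where it was high. The adjusted p-values of this Il18rap mean, here and below, are therefore descriptions and no support for the rise. The 24 h rise passed the test in 5 of 5 fits that left out 1 array, and the 48 h rise in 3 of 5; without 0 h replicate 1 its adjusted p was 0.109 and without 48 h replicate 1 it was 0.239. This measure calls more genes in general, 4.91% of those it tests at 24 h and 6.1% at 48 h.

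In J558L tumours probe set 17212257 read 8.43, 8.14 and 7.78 at 24 h, against 7.01 and 6.66 at 0 h. The groups did not overlap, and the difference of 1.28 ± 0.56 did not pass the test (adjusted p = 0.517, limma). Probe set 17212258 read 9.58, 9.20 and 8.81 at 24 h, against 7.45 and 5.68 at 0 h. Of the 16 probe sets 11 did not overlap between the groups (11.5% of all probe sets were higher without overlap), and the median difference over all 16 was 1.52. The mean over the 16 was 7.11, 6.60 and 5.94 at 24 h, against 4.90 and 5.15 at 0 h. By that mean Il18rap rose by 1.53 ± 0.35 (adjusted p = 0.0136, limma), where 3.82% of genes passed. The limit set by the filter, given above for MCA313 tumours, holds for this call too. The call was lost without 24 h replicate 1 (1.25, adjusted p = 0.0856), without 0 h replicate 1 (adjusted p = 0.232) and without 0 h replicate 2 (adjusted p = 0.0682).

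In kidney endothelium of the same model Il18rap was low and showed no common direction. Probe set 17212257 read 5.89, 5.06 and 6.52 at 24 h, against 5.28, 4.59 and 5.37 at 0 h, with 1 of the 6 arrays above the array medians, and differed by 0.74 ± 0.50 (adjusted p = 0.587, limma). Probe set 17212258, the one with the largest difference in MCA313 tumours, read 4.30, 2.5 and 4.56 at 24 h, against 5.49, 3.30 and 4.46 at 0 h. Of the 16 probe sets 7 were higher and 9 lower, with a median of -0.16, and 3 were higher without overlap (7.62% of all). The mean over the 16 was 4.38, 4.33 and 4.61 at 24 h, against 4.40, 4.08 and 4.52 at 0 h, a difference of 0.11 ± 0.31 (adjusted p = 0.903, limma). The tumour response exceeded the kidney response by 1.42 ± 0.47 in this measure (95% interval 0.45 to 2.39, adjusted p = 0.247) and by 0.54 ± 0.76 in probe set 17212257 (adjusted p = 0.999, limma). The difference between tumour and kidney therefore did not pass the test in either measure.

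In 16.113 tumours the Il18rap arrays of the 2 groups overlapped. Probe set 17212257 read 7.45, 6.05 and 8.31 after IFNγ+/+ T cells, and 6.58, 5.12, 5.93, 6.34 and 7.03 after IFNγ-/- T cells. The difference of 1.07 ± 0.45 did not pass the test (adjusted p = 0.172, limma). IFNγ+/+ replicate 2 was the low array. Leaving out 1 array at a time gave differences of 0.55 (without IFNγ+/+ replicate 3, adjusted p = 0.634) to 1.68 (without IFNγ+/+ replicate 2, adjusted p = 0.0312, limma), and 1 of these 8 fits passed the test. Of the 16 probe sets 13 were higher, none without overlap, with a median of 0.47. Their mean was 5.58, 4.04 and 5.45 after IFNγ+/+ T cells, and 4.51, 4.74, 4.20, 4.88 and 4.77 after IFNγ-/- T cells. It differed by 0.40 ± 0.28 (adjusted p = 0.358, limma), by 0.12 without IFNγ+/+ replicate 1 and by 0.89 without IFNγ+/+ replicate 2 (adjusted p = 0.817 and 0.0174).

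T and NK cells carry Il18rap, so their markers are given beside it. Of 12 listed markers 9 were measured, and their mean level was 6.55 to 6.9 at 24 h against 6.36 to 6.65 at 0 h in MCA313 tumours, and 6.77 to 6.88 at 24 h against 6.64 to 6.81 at 0 h in J558L tumours. None of the 9 passed the test in limma in MCA313 tumours at 24 h, in MCA313 tumours at 48 h or in J558L tumours, where 1, 1 and 0 had an unadjusted p below 0.05. Of the 9, 7 were higher and 2 lower in MCA313 at 24 h, 3 and 6 at 48 h, and 6 and 3 in J558L tumours. Xcl1 was below the median of every array in the 0 h, 24 h and 48 h groups of MCA313, and Cd7 in both J558L tumour groups. Others were so in some groups only. In MCA313 these were Cd7 at 0 h and 48 h but not 24 h, and Prf1 at 48 h. In J558L tumours they were Prf1 and Ifng, at 0 h but not 24 h. In kidney the 9 markers averaged 7.33 to 7.62 at 24 h against 6.83 to 7.47 at 0 h, and Tcf7 was higher (1.67 ± 0.35, adjusted p = 0.00993, limma). In 16.113 tumours they averaged 6.53 to 7.08 after IFNγ+/+ T cells against 6.26 to 6.75 after IFNγ-/- T cells. There 6 of the 9 were higher and 3 lower, with none past the test and 1 at an unadjusted p below 0.05 in limma. Prf1 and Ifng were below every array median after IFNγ-/- T cells only. The part of these markers in the Il18rap values was not tested, and in sorted bulk samples more cells of a type and more RNA per cell cannot be told apart.

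**Figure D2:**
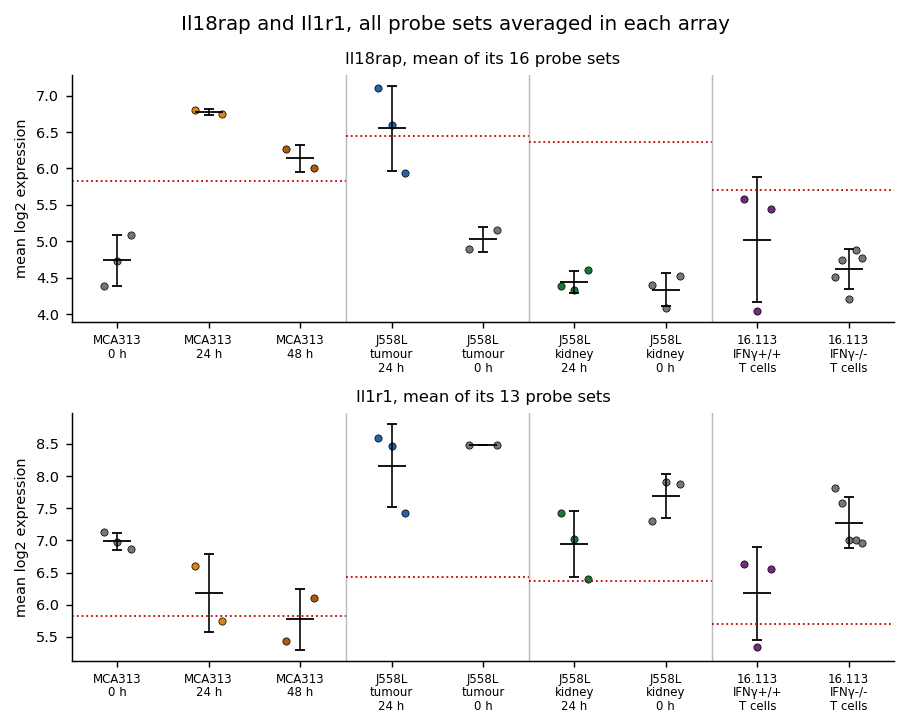
Mean log2 level over the 16 Il18rap probe sets (top) and the 13 Il1r1 probe sets (bottom) in each array (points), with group mean and SD (bars) and the median of all probe sets in each set (dotted). Vertical lines part sets that are not compared. For Il18rap the induced tumour arrays lie above their 0 h arrays, while the kidney groups overlap.

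Il1r1, the signalling IL-1 receptor, was the only member past the test with 1 probe set per gene, and it was lower. In 16.113 tumour endothelium its level was 4.29-fold lower after IFNγ+/+ than after IFNγ-/- T cells. Of its 13 probe sets 11 or 12 were lower in each of the 5 comparisons, against 52.5% to 54.6% of all probe sets. The gene lies at chr1:40222480-40316201.

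The brightest Il1r1 probe set, 17212192, read 8.24, 6.06 and 8.82 after IFNγ+/+ T cells, and 10.33, 10.03, 10.18, 9.37 and 9.14 after IFNγ-/- T cells. The groups did not overlap, and IFNγ+/+ replicate 2 lay more than 2 log2 units below the other two arrays of its group. The change was -2.10 ± 0.51 (95% interval -3.16 to -1.04, adjusted p = 0.0139, limma), in a comparison where 7.36% of the 4386 genes passed. Without IFNγ+/+ replicate 2 it was -1.28 with an adjusted p of 0.105, and with the spread estimated from the 16.113 arrays alone the adjusted p was 0.139. In 14 of the 16 alternatives the adjusted p was below 0.05, and its range over them was 0.00903 to 0.139. Averaged over the 13 probe sets the level was 6.63, 5.34 and 6.56 after IFNγ+/+ T cells, and 7.82, 7.58, 7.01, 7.01 and 6.96 after IFNγ-/- T cells. This mean fell by 1.10 ± 0.32 (adjusted p = 0.0233, limma), where 15.6% of genes passed, and missed the threshold without IFNγ+/+ replicate 2 (-0.68, adjusted p = 0.184), IFNγ-/- replicate 1 (adjusted p = 0.055) or IFNγ-/- replicate 2 (adjusted p = 0.0515).

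A run of 4 identifiers carried the Il1r1 calls in 16.113 tumours, 4 of the 5 cluster probe sets past the test there (2.28% of all probe sets passed). Probe set 17212191 had the lowest adjusted p: it read 7.01, 5.07 and 7.17 after IFNγ+/+ T cells, and 9.52, 8.66, 8.52, 8.58 and 8.40 after IFNγ-/- T cells, a change of -2.32 ± 0.43 (adjusted p = 0.00659, limma). It passed in 8 of 8 fits without 1 array, the highest adjusted p being 0.0361. Probe sets 17212190, 17212192 and 17212193 changed by -1.53 ± 0.34, -2.10 ± 0.52 and -2.20 ± 0.48 and passed in 7, 4 and 6 of those 8 fits. In all, 5 of the 13 probe sets were lower without overlap of the groups (3.98% of all probe sets), and the differences of all 13 ran between -2.83 and 0.39.

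In MCA313 tumours Il1r1 probe set 17212192 read 9.30, 8.80 and 8.81 at 0 h, 8.45 and 6.96 at 24 h, and 6.38 and 8.60 at 48 h. All 4 induced arrays lay below the 0 h arrays, but 1 array of each induced group was close to them. The differences of -1.27 ± 0.64 at 24 h and -1.48 ± 0.64 at 48 h did not pass the test (adjusted p = 0.504 and 0.323, limma). Single arrays moved them: at 24 h the difference was -0.52 without 24 h replicate 2 and -2.01 without 24 h replicate 1, and at 48 h it was -0.36 without 48 h replicate 1 and -2.59 without 48 h replicate 2. Over the 13 probe sets 11 were lower at 24 h (median -0.91) and 12 at 48 h (median -1.41), and the groups did not overlap in 6 and 10 of them (16.2% and 16.4% of all probe sets). The mean over the 13 was 7.13, 6.97 and 6.86 at 0 h, 6.61 and 5.75 at 24 h, and 5.44 and 6.11 at 48 h, differences of -0.81 ± 0.40 (adjusted p = 0.272) and -1.21 ± 0.40 (adjusted p = 0.0791, limma) from 0 h. Without 1 array they ran between -1.24 and -0.38 at 24 h, the ends being without 24 h replicates 1 and 2, and between -1.55 and -0.88 at 48 h.

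In J558L tumours Il1r1 was high in both groups. Probe set 17212192 read 10.03, 10.50 and 9.93 at 24 h, against 10.19 and 10.32 at 0 h, a difference of -0.10 ± 0.64 (95% interval -1.44 to 1.23, adjusted p = 0.999, limma). The median over the 13 probe sets was -0.31, with 1 lower without overlap (14.6% of all). The 16.113 response lay below the J558L tumour response (by -2.0 ± 0.82, unadjusted p = 0.024, adjusted p = 0.722, limma), so that the difference between these models did not pass the test.

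Kidney Il1r1 read 9.21, 9.05 and 8.65 at 24 h in probe set 17212192, against 9.40, 9.55 and 9.92 at 0 h. The 24 h arrays all lay below the 0 h arrays, and the difference of -0.65 ± 0.57 did not pass the test (adjusted p = 0.702, limma). Probe set 17212193 read 7.40, 6.12 and 5.72 at 24 h, against 8.42, 8.52 and 8.17 at 0 h, a difference of -1.96 ± 0.54 that did not pass the test (adjusted p = 0.109, limma). Of the 13 probe sets 11 were lower (median -0.74), 5 of them without overlap (9.73% of all).

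**Figure D3:**
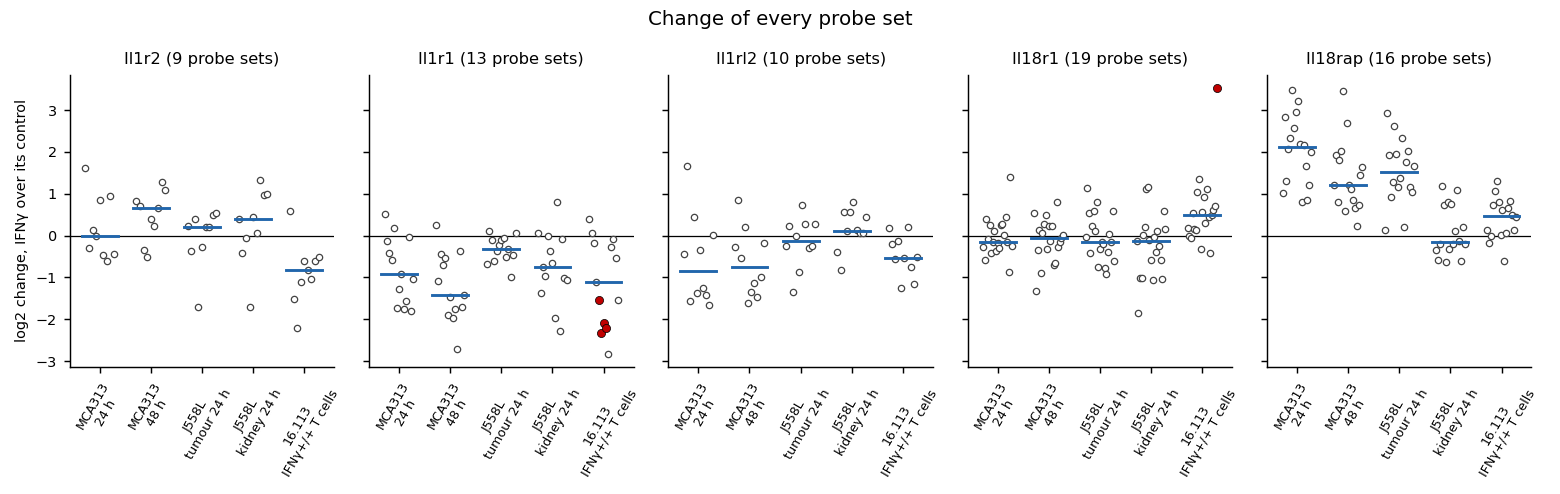
Log2 change of every probe set of the 5 genes (points, in order of identifier) in the 5 comparisons, each IFNγ-exposed group over its control. Filled red points passed the test over all probe sets and blue lines are medians. Il18rap points lie above 0 in the 3 induced tumour comparisons, and most Il1r1 points lie below 0 in all 5.

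Il1r2, the decoy receptor for IL-1, passed no test. In 16.113 tumours its brightest probe set, 17212184, read 9.66, 9.30 and 10.10 after IFNγ+/+ T cells, and 12.01, 8.68, 10.88, 9.01 and 10.43 after IFNγ-/- T cells. The IFNγ+/+ arrays lay inside the range of the IFNγ-/- arrays, whose spread was the wider, and the difference was -0.51 ± 0.70 (adjusted p = 0.734, limma). Of its 9 probe sets 8 were lower there, none without overlap, with a median of -0.82. In MCA313 tumours the probe set read 5.55, 5.58 and 6.07 at 0 h, 6.92 and 3.66 at 24 h, and 6.94 and 6.73 at 48 h. The 48 h arrays lay above the 0 h arrays and the 24 h arrays on both sides of them, and the 48 h difference was 1.10 ± 0.88 (adjusted p = 0.681, limma). Averaged over its 9 probe sets Il1r2 lay above the array median in 8 of 8 arrays of the 16.113 set and in 0 of the 18 arrays of the others.

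In J558L tumours Il1r2 probe set 17212184 read 7.16, 6.85 and 7.95 at 24 h, against 7.21 and 6.33 at 0 h, and in kidney 7.34, 5.43 and 5.13 at 24 h, against 4.57, 4.5 and 5.83 at 0 h. The groups overlapped in both tissues, and the differences were 0.55 ± 0.88 and 1.00 ± 0.78 (adjusted p = 0.999 and 0.662, limma). Its 9 probe sets had medians of 0.2 in tumour and 0.39 in kidney.

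Il1rl2, the IL-36 receptor, differed by at most 0.44 in its brightest probe set, 17212204, in the 5 comparisons and passed the test in none (adjusted p 0.833 to 0.999, limma; 0 had an unadjusted p below 0.05). In MCA313 tumours it read 6.34, 6.72 and 7.02 at 0 h, 6.56 and 7.71 at 24 h, and 7.13 and 6.66 at 48 h. After 24 h in J558L tumours it read 7.19, 6.32 and 8.90, against 7.86 and 7.12 at 0 h. Within 16.113 tumours it stayed between 6.34 and 6.75 after IFNγ+/+ T cells, and between 6.47 and 6.86 after IFNγ-/- T cells. In kidney it read 6.68, 7.11 and 6.99 at 24 h, against 6.95, 6.78 and 6.75 at 0 h. The groups overlapped in each of these sets. In MCA313 tumours most of the gene's probe sets had the opposite sign: 7 of 10 were lower at 24 h (median -0.84) and 8 of 10 at 48 h (median -0.76). In 16.113 tumours 8 of 10 were lower (median -0.53), and in kidney 8 of 10 were higher (median 0.12), while the mean over the 10 was above the array median in 2 of the 26 arrays.

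Il18r1, the chain that binds IL-18, had differences centred near 0 outside 16.113 tumours. Its 19 probe sets had medians of -0.15 in MCA313 tumours at 24 h, -0.05 at 48 h, -0.15 in J558L tumours and -0.14 in kidney, and their mean lay below the array median in all 26 arrays. The brightest, 17212234, read 7.62, 7.11 and 7.76 in kidney at 24 h, against 8.27, 8.72 and 8.52 at 0 h. The groups did not overlap, and the difference of -1.01 ± 0.48 did not pass the test (adjusted p = 0.351, limma). In MCA313 tumours it read 6.38, 5.58 and 7.42 at 0 h, 7.26 and 5.51 at 24 h, and 7.28 and 5.92 at 48 h, so that all 3 groups overlapped. In J558L tumours it read 7.06, 6.74 and 7.07 at 24 h, against 7.02 and 7.73 at 0 h, and in 16.113 tumours 8.12, 6.53 and 7.38 after IFNγ+/+ T cells, and 7.09, 6.70, 6.46, 7.25 and 6.48 after IFNγ-/- T cells (0.55 ± 0.43, adjusted p = 0.49, limma).

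A single Il18r1 probe set stood apart in 16.113 tumours. Probe set 17212251 read 9.30, 6.34 and 8.65 after IFNγ+/+ T cells, and 5.39, 3.99, 4.13, 5.24 and 4.08 after IFNγ-/- T cells. All IFNγ+/+ arrays lay above the array medians and all IFNγ-/- arrays below them, and the change was 3.53 ± 0.56 (adjusted p = 0.00215, limma). It passed in 8 of 8 fits without 1 array (highest adjusted p 0.019) and in 13 of 14 alternatives, the exception being the fit of the 16.113 arrays alone (0.12). Its size is uncertain because the IFNγ-/- level lay below the array medians. Of the other 18 probe sets none passed, although 16 of the 19 were higher (median 0.5), and 17212251 alone was higher without overlap (2.68% of all probe sets). In the other 4 comparisons it did not pass: in J558L tumours it read 5.29, 4.69 and 4.46 at 24 h, against 5.16 and 5.67 at 0 h, and in kidney 6.71, 6.29 and 8.0 at 24 h, against 7.20, 6.46 and 6.86 at 0 h.

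**Figure D4:**
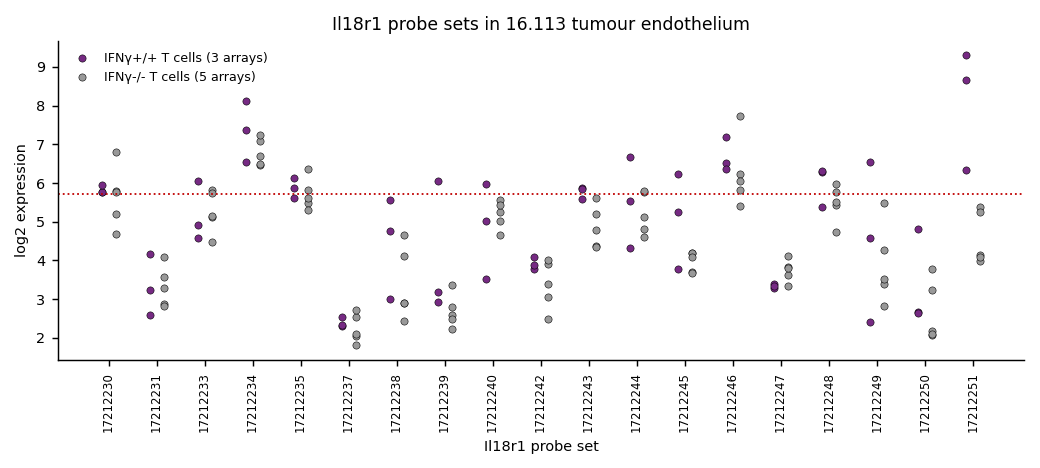
Log2 level of the 19 Il18r1 probe sets in 16.113 tumour endothelium after IFNγ+/+ T cells (3 arrays, purple) and after IFNγ-/- T cells (5 arrays, grey), with the median of all probe sets dotted. The last probe set, 17212251, is the one whose groups stand apart.

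Counted over the cluster, limma passed 0 of 5 genes in MCA313 tumours at 24 h (0.684% of all genes passed) and at 48 h (1.37%), in J558L tumours (0.547%) and in J558L kidney (3.17%). At an unadjusted p below 0.05 the counts were 1, 2, 1 and 1 of 5, where all genes gave 10.9%, 12.8%, 8.14% and 13.7%. In 16.113 tumours 1 of 5 passed (7.36% of all genes), and 2 of 5 had an unadjusted p below 0.05 (21.5%). Counts of 1 or 2 among 5 genes are too few to judge against these shares. At the level of probe sets 0 of 67 passed in those 4 comparisons (0.0966%, 0.195%, 0.0854% and 0.863% of all probe sets), with 17, 15, 9 and 7 of 67 at an unadjusted p below 0.05, against 8.51%, 9.19%, 5.51% and 10.1% of all probe sets. The kidney count is at the share of all probe sets. All of the 9 in J558L tumours and most of the 17 in MCA313 at 24 h were Il18rap probe sets. Most of the 15 at 48 h were of Il18rap or Il1r1. Probe sets of 1 gene read 1 transcript and are not independent, so these are not counts of separate members. In 16.113 tumours 5 of 67 passed (2.28% of all) and 13 of 67 had an unadjusted p below 0.05 (15% of all). None of the 5 genes passed for MCA313 48 h against 24 h (0.0684% of all genes), tumour against kidney response (0.0228%), MCA313 against J558L response (0.0%) or 16.113 against J558L response (0.0%), with 0, 0, 0 and 1 at an unadjusted p below 0.05. Comparisons within MCA313 share the 0 h arrays, and the differences of responses reuse the arrays of the responses. With the mean of a gene's probe sets, kidney passed 0 of the 4 receptor genes tested (9.71% of all genes), with Il1r1 at an unadjusted p of 0.0498.

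**Figure D5:**
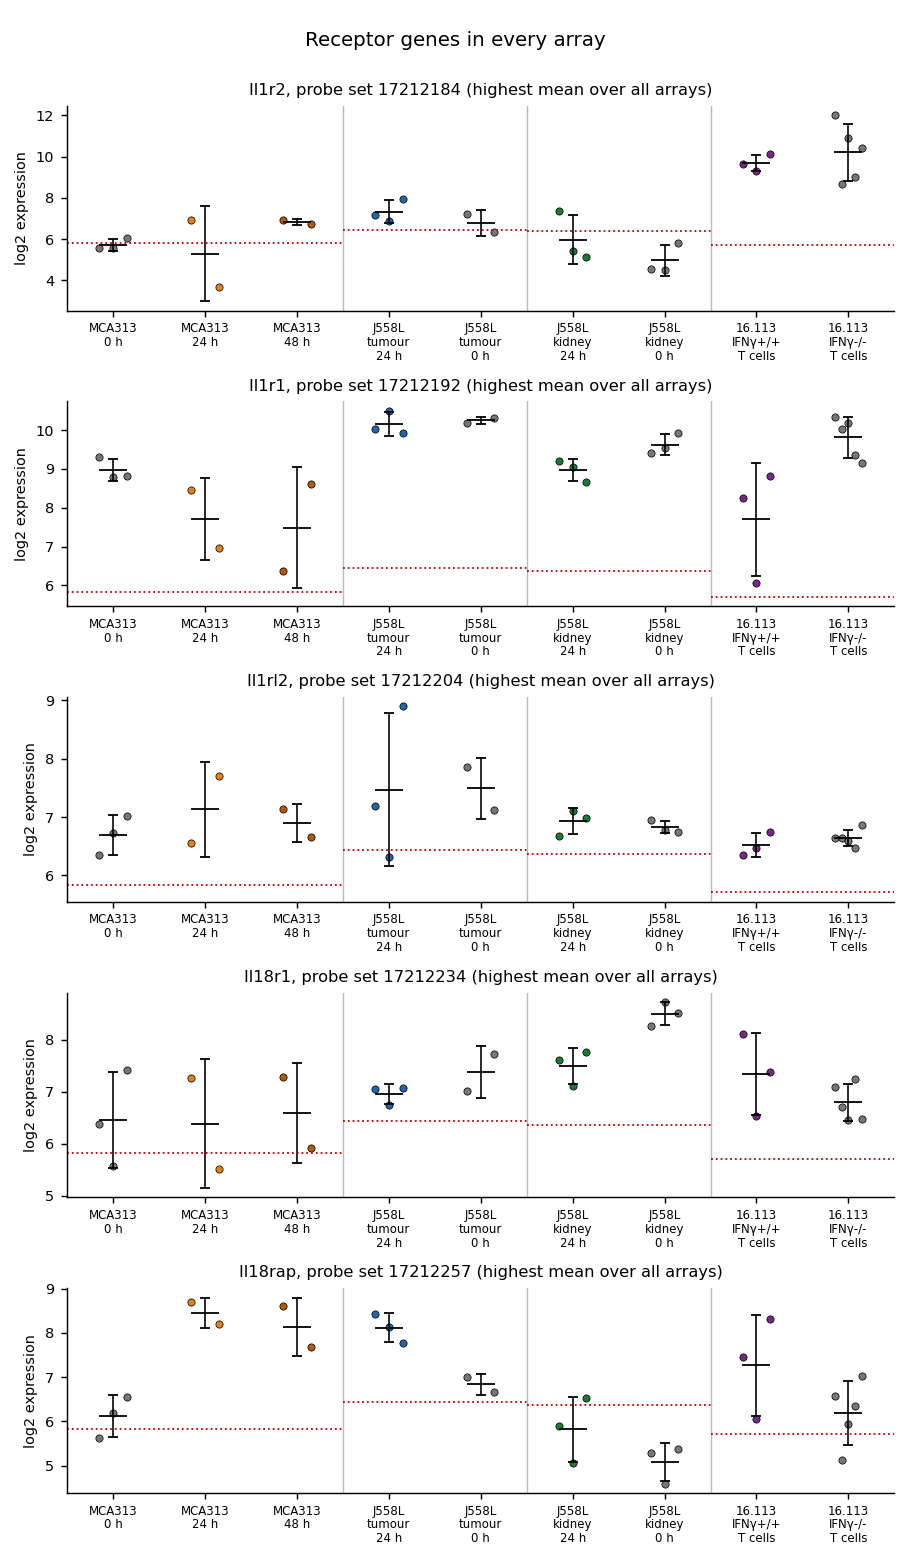
Log2 level of the brightest probe set of each receptor gene in all 26 arrays (points), with group mean and SD (bars). Vertical lines part the 4 sets and the dotted line is the median of all probe sets in each. Il18rap lies higher in induced tumours and Il1r1 lower after IFNγ+/+ T cells, each against its own control.

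The probe sets of a gene differed in how far they followed each other over the 26 arrays once the mean of each set had been taken off. The median pairwise Pearson r was 0.48 for Il18rap, 0.45 for Il1r2, 0.35 for Il1r1, 0.23 for Il1rl2 and 0.08 for Il18r1, against a median of 0.11 over 3608 genes with 5 or more probe sets. These correlations are descriptions, since the points share arrays and treatment. Between the brightest probe sets of different members r was lowest for Il1r1 with Il18rap (-0.41) and highest for Il1r2 with Il18rap (0.28), and for Il18r1 with Il18rap it was 0.17.

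By the same measure the genes most like Il18rap were Ninj1 (r = 0.85), Ifi211 (0.83) and Cfap221 (0.82). Ifi211, a member of the IFN-inducible p200 family, had a change of 1.65 ± 0.38 in MCA313 tumours at 24 h and of 1.77 ± 0.34 in kidney. In kidney the Il18rap probe set used for this likeness, 17212257, differed by 0.74 ± 0.50, and the mean over the Il18rap probe sets by 0.11. The genes most like Il1r1 were Mical1 (0.86), Sgo2a (0.83) and Zfp652 (0.81), with log2 changes of -1.89 ± 0.50, -2.15 ± 0.60 and -0.91 ± 0.25 in 16.113 tumours. These genes were chosen for following the receptor over the same arrays, so their changes are descriptions and carry no test. The most similar gene was Coq10a for Il1r2 (0.68), Crhr1 for Il1rl2 (0.77) and Tmem26 for Il18r1 (0.68).

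Other genes of the pathway were read from fixed lists. The 11 ligands and antagonists, Il1b, Il18 and Il33 among them, were not analysed here. Of 34 co-receptors and signalling genes 13 were tested and 0 passed in any of the 5 comparisons, with 3, 2, 1, 2 and 1 at an unadjusted p below 0.05 in limma for MCA313 at 24 h and 48 h, J558L tumour, kidney and 16.113, where all genes gave 10.9%, 12.8%, 8.14%, 13.7% and 21.5%. The list medians were between 0.0 and 0.24, and the medians over all genes between -0.03 and 0.01. The largest differences were those of Traf5, a TRAF adaptor (-1.73 ± 0.90 in MCA313 at 48 h, adjusted p = 0.445), and Map2k6, a kinase upstream of p38 (-1.54 ± 0.59 in MCA313 at 24 h, adjusted p = 0.301, limma). Of 11 inflammasome genes, which process the IL-1 and IL-18 precursors, 6 were tested and 0 passed, with 1 at an unadjusted p below 0.05 in limma, in 16.113 tumours. The largest difference among them was that of Nlrp3 (1.85 ± 0.95 in MCA313 at 48 h, adjusted p = 0.434, limma).

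Among 26 NF-kB genes and targets of IL-1, 13 were tested and 1 passed in each of 2 comparisons, MCA313 at 48 h (1.37% of all genes) and 16.113 (7.36% of all genes, near 1 of 13). Sele, the endothelial adhesion molecule E-selectin and an IL-1 target, fell by 2.24 ± 0.49 in MCA313 tumours at 48 h (adjusted p = 0.0249, limma). Its difference was -1.61 ± 0.49 at 24 h (adjusted p = 0.139), -1.64 ± 0.49 in J558L tumours (adjusted p = 0.168) and -1.26 ± 0.39 in 16.113 tumours (adjusted p = 0.0522, limma). Csf2, which encodes the growth factor GM-CSF, fell by 1.61 ± 0.36 in 16.113 tumours (adjusted p = 0.00855, limma). None of the 13 passed in MCA313 at 24 h, J558L tumour or kidney, where 1, 1 and 0 had an unadjusted p below 0.05 in limma, and the list medians in the 5 comparisons were 0.0, -0.26, -0.06, 0.18 and -0.17. Of 15 genes beside the cluster on chromosome 1, all tested, 1 passed: Tmem182 fell by 1.6 ± 0.36 in kidney (adjusted p = 0.0148, limma), where 3.17% of all genes passed. In MCA313 at 24 h and 48 h, J558L tumour and 16.113 none did, with 2, 2, 1 and 4 of 15 at an unadjusted p below 0.05 in limma, near the shares of all genes given above.

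Markers of other cells the sort could hold were read the same way. Of 12 myeloid markers 9 were tested and only Fcgr4, an Fc receptor, passed. It was higher by 3.67 ± 0.73 at 24 h and 3.33 ± 0.73 at 48 h in MCA313 tumours (adjusted p = 0.0161 and 0.0249, limma), where 0.684% and 1.37% of all genes passed. Of the 9, 4 were higher and 5 lower in MCA313 at 24 h (median -0.05), and 7 and 2 at 48 h (median 0.23). In J558L tumours 4 were higher and 5 lower (median -0.19), in kidney 7 and 2, and in 16.113 tumours 3 and 6. Lyz1 was below the array median in every array of all 9 groups. The mean level over the 10 measured myeloid markers was 7.03 to 7.39 at 24 h and 7.25 to 7.41 at 48 h, against 6.62 to 6.98 at 0 h, in MCA313 tumours, and 7.52 to 7.89 at 24 h against 7.72 to 7.73 at 0 h in J558L tumours. Of the 3 plasma cell markers, Irf4 was higher in all 4 tumour comparisons, by 2.51 to 3.39 (adjusted p at most 0.00956, limma). Sdc1 was lower in 16.113 tumours (-0.94 ± 0.27, adjusted p = 0.0392, limma), and Xbp1 passed in none. All 3 were higher in MCA313 at both times, 2 in J558L tumours and 1 in 16.113. The list medians there were 0.28 and 0.18, 0.22 and -0.2, where 0.684%, 1.37%, 0.547% and 7.36% of all genes passed. Of 5 fibroblast and mural, 4 mast cell and type 2 lymphoid, and 2 pan-leukocyte markers tested, 0 passed in limma in the 5 comparisons, and 1, a fibroblast or mural marker in kidney, had an unadjusted p below 0.05. For the Il1r1 values in 16.113 tumours, the endothelial markers averaged 10.78 to 11.07 after IFNγ+/+ T cells against 10.98 to 11.27 after IFNγ-/- T cells, and the fibroblast and mural markers 8.74 to 9.07 against 8.89 to 9.0. The part of these markers in the receptor values was not tested.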

How the data were processed

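Endothelial cells (5000 to 15000 per sample) were sorted into RNAzol and about 500 pg of RNA was amplified (WT Pico kit), as the labels' protocols state. The deposited values are log2 expression levels per probe set, normalized by the authors. The submitters' processing notes name limma and Affymetrix Expression Console. The method of normalization and its versions are not given in the sources used here. Exact values recurred between arrays within 4 sets (a median of 3.61% of values) and in at most 0.0059% between sets, so levels were compared within sets only.

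Of 65535 probe sets 53857 had 1 gene symbol, 766 several and 10912 none; the table covers part of the array. Symbols were matched to RefSeq (4618 current, 494 synonyms, 8 unmatched). For genes, the probe set with the highest mean over 26 arrays was used and kept if above the array's 50th percentile in at least 2 arrays (4386 genes). limma 3.58.1 (R 4.3.3) was fitted with 9 group means, two-sided moderated tests and Benjamini-Hochberg adjustment at 0.05, over genes and, without a filter, over the probe sets with 1 symbol. The small number of arrays limits the precision.

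Alternatives were no filter, the 75th percentile, the mean of a gene's probe sets (2854 genes kept, without Il18r1), quantile normalization of all arrays, a trended robust prior, array weights, a block on replicate numbers (with statmod 1.5.0), the compared sets alone and leaving out each array; leaving out arrays from the mean of probe sets was added after the data were seen. On simulated data with 200 of 4386 genes changed, between 37% and 56% of genes changed by 2-fold and between 84% and 96% changed by 4-fold were recovered over the 5 comparisons. Members and lists were chosen with earlier results of these data known. Named genes are the receptor genes, list members past the test or the largest where none passed, the 3 genes most alike and fixed check genes. Same-numbered arrays of treated and control groups correlated between -0.144 and 0.113 in their deviations from group means, so the numbers do not pair those groups; tumour and kidney arrays of the same number were not checked.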

Additional observations from a re-analysis of the deposited data

How the results depend on the processing

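The count of receptor genes past the test was 0 in each of the 3 induced tumour comparisons and 1 after IFNγ+/+ T cells. For MCA313 at 24 h it was 1, Il18rap, with the 75th percentile filter (adjusted p = 0.0389), the mean of probe sets, a trended robust prior (0.0404) and array weights (0.0201), and 1 at 48 h with the mean and with array weights (0.0361). For J558L tumour it was 1 with the mean. By the mean Il18rap passed the filter through induced tumour arrays alone, so its calls by that measure are descriptions. For 16.113 the count of receptor genes was 0 with the 16.113 arrays alone, a fit that takes the spread from those arrays only. The reason for this loss was not tested. Without IFNγ+/+ replicate 2 the gene past the test was Il18rap in place of Il1r1. The count of receptor probe sets, 0 in J558L tumour and 5 in 16.113, was 3 and 2 with array weights and 0 for 16.113 with its arrays alone. Leaving out 1 array gave 0 to 1 in MCA313 at 24 h and at 48 h and in J558L tumour, and 2 to 6 in 16.113. Kidney stayed at 0 receptor genes and 0 probe sets in all alternatives run. Over single genes, 240 of 254 changes kept their sign and side of the threshold under the alternatives other than leaving out an array. The sign turned in 6: with the mean of probe sets for Il1r2 in J558L tumour (-0.03) and MCA313 at 24 h (0.19) and for Il1rl2 in MCA313 at 24 h (-0.59) and 48 h (-0.64), and for Il1rl2 in J558L tumour with quantile normalization (0.00) and with the replicate number as a block (0.03). The replicate block changed no call of a receptor gene; Il18rap in MCA313 at 24 h was 2.32 (adjusted p = 0.0813, limma) and Il1r1 in 16.113 -2.07 (adjusted p = 0.0177, limma). Leaving out an array turned the sign in 15 of 221 fits. The ranges were, for Il18r1, -0.95 to 0.80 in MCA313 at 24 h and -0.54 to 0.82 at 48 h; for Il18rap, -0.77 to 0.16 for 48 h against 24 h and -0.74 to 0.40 for the 16.113 minus J558L response. For Il1r1 they were -0.28 to 0.01 in J558L tumour and -1.32 to 0.90 for 48 h against 24 h. For Il1r2 the range was -2.07 to 1.19 in MCA313 at 24 h, and for Il1rl2 it was -0.13 to 1.02 in MCA313 at 24 h, -0.03 to 0.43 at 48 h and -0.74 to 0.55 in J558L tumour. For the means of probe sets they were -0.02 to 0.20 for Il18rap in kidney and -0.54 to 0.04 for Il1r1 in J558L tumour. The cause of these turns was not tested. Over all genes the mean of probe sets passed 140, 174, 109 and 277 genes for MCA313 at 24 h and 48 h, J558L tumour and kidney, where the 1 probe set fit passed 30, 60, 24 and 139. The compared sets alone passed 1 and 4 for MCA313, 67 for kidney and 34 for 16.113 (323 in the fit of all arrays), array weights 60 for MCA313 at 24 h, 127 for J558L tumour, 242 for kidney and 77 for 16.113, and the 75th percentile filter 47 for MCA313 at 24 h. Over all probe sets, which passed 52, 105, 46, 465 and 1229 in the 5 comparisons, a trended robust prior passed 79, 200, 71 and 701 in the first 4. Array weights passed 203, 312, 706 and 157 in the last 4, and the compared sets alone 0, 0, 1, 2 and 75. Groups of 2 or 3 arrays limit what could be detected, and Il18r1, Il1rl2 and Il1r2 outside 16.113 lay near or below the array medians on average.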
